A study of Mus musculus with 10 samples.

Results

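The enzymes that build mevalonate from acetyl-CoA and carry it to the isoprenoid diphosphates were followed in mouse cortical neurons treated with lactacystin, an inhibitor of the proteasome. The genes considered were Acat2, Hmgcs1, Mvk, Pmvk, Mvd, Idi1, Fdps and Ggps1, and their members were the probe sets that the platform annotation gives one of these symbols or a synonym. A probe set is a group of short probes against 1 transcript. Of the 12422 probe sets that were no controls, 11 were members and stood for 6 of the 8 genes, of 8251 genes that the probe sets name in all; Acat2 and Pmvk were not analysed here. Of the 11, 7 were on both array designs of the study, U74A and its revision U74Av2, and 4 on U74Av2 alone.

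The mevalonate pathway condenses acetyl-CoA units to hydroxymethylglutaryl-CoA, reduces that to mevalonate, and phosphorylates and decarboxylates mevalonate to the isoprene unit from which sterols, dolichol, ubiquinone and the lipid anchors of small GTPases are made. Many genes of the pathway are transcribed by SREBP-2, a membrane-bound factor that is cut and released when sterols in the endoplasmic reticulum are low, and it binds sterol regulatory elements together with NF-Y, which binds CCAAT boxes. Neurons make cholesterol for growing axons and synapses, and in the brain nearly all cholesterol is made locally.

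The bases upstream of 4 member genes that fell under lactacystin (below) are shown, because the members' changes could be set beside the motifs there. They are from RefSeq, mouse build GRCm38.p6, written 5′ to 3′ on the gene's strand, and bases inside a gene of the RefSeq table are left out. Capitals mark CCAAT boxes (CCAAT, or ATTGG on the other strand) and the core of the sterol regulatory element (CACCCCAC).
Hmgcs1, chr13:119690101-119690350, plus strand: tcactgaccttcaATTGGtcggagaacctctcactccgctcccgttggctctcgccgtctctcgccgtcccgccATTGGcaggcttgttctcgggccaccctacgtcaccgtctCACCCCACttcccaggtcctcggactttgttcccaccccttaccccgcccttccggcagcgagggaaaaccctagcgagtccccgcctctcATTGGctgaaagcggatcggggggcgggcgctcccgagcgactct
Mvk, chr5:114444074-114444263, plus strand, between Mmab and Mvk: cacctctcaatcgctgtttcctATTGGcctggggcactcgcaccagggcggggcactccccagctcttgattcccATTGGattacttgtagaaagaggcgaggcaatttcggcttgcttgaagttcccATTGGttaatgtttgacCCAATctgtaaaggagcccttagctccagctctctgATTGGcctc
Mvd, chr8:122443423-122443655, minus strand: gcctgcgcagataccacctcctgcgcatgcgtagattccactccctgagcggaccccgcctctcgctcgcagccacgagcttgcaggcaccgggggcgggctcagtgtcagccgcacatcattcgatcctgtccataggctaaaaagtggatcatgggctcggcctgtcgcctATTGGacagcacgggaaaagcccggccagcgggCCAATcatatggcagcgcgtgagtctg
Idi1, chr13:8885356-8885605, plus strand: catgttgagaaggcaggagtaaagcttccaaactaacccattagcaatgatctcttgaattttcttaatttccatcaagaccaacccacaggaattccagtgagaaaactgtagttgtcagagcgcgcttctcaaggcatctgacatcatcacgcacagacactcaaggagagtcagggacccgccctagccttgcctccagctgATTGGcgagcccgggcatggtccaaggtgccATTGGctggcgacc

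Motifs were searched on both strands in the 250 bases before each start, and 7 of the 8 genes had an entry; Fdps had none. CCAAT was found 5 times before Mvk, 3 times before Hmgcs1 and 2 times each before Mvd and Idi1. It was absent before Acat2 and found 1 time before 1 of the 2 entries of Pmvk. At least 2 copies stood in 10.1% and at least 3 in 2.79% of all 32851 RefSeq promoter entries, and at least 1 in 33.8%. Ggps1, which did not pass the test (below), held 3 copies, as many as Hmgcs1, at -201, -160 and -55 from the start. None of these is in the 42 bases of its window that remain when bases inside a gene are left out. The copies before Hmgcs1, Mvk, Mvd and Idi1 all stand in the bases shown above. The core CACCCCAC stood once before Hmgcs1, 136 bases from the start, and once before Acat2, against 2.58% of all entries. The E-box CACGTG (6.02% of entries) matched none of the 7 genes. The GC box GGGCGG matched before Hmgcs1, Mvk, Mvd, Idi1 and Acat2 (32.7% of entries). A match is a run of letters in this window and no evidence of binding.

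**Figure D1:**
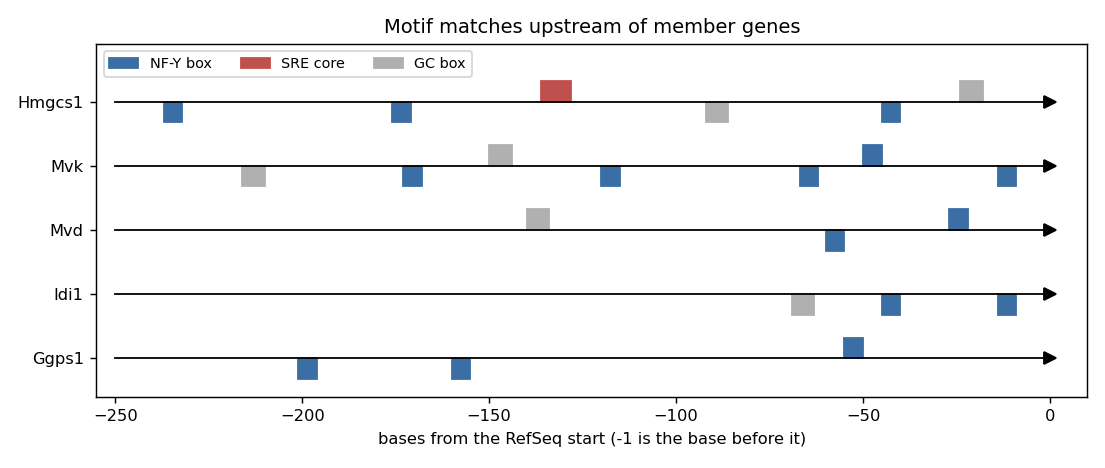
Matches to the sterol regulatory element core (SRE core), the CCAAT box (labelled NF-Y box) and the GC box in the 250 bases before the RefSeq start of 5 genes. The horizontal axis is the distance from the start in bases, boxes above a line are on the gene's strand and boxes below it on the other strand; Mvk holds 5 CCAAT boxes and Ggps1 holds 3.

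RNA came from primary cortical neurons of Swiss albino mouse foetuses of gestation day 15 to 16, on day 5 in culture when treatment began; no genetic change is given for any group. The groups were control at 24 h (2 arrays), control at 48 h (2 arrays), 1 µM lactacystin for 24 h (3 arrays) and 1 µM lactacystin for 48 h (3 arrays). The labels do not say whether controls received the solvent of the lactacystin stock, nor whether each replicate had a culture of its own; the p-values thus rest on the spread among these arrays, and that spread may be technical. Each group had 1 U74A array, which was replicate 1 except for lactacystin at 48 h, where it was replicate 3. The remaining 6 were U74Av2 arrays, so every comparison within a time could be made within each design.

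Signals were scaled to a trimmed mean of 500 on every array, and changes are given as lactacystin minus control in log2(signal + 32) with their standard error (SE). Adding 32 understates the change of dim probe sets. On the 10 arrays 6984 probe sets were tested, after the 30% with the lowest mean signal (under 54.8) were left out. Replicates of one group were less alike across designs than within one: between replicates of different design r was 0.937 to 0.952 across probe sets, and for the 2 pairs of the same design 0.979 and 0.990. Of 44 cell type markers on both designs none was at 0 on any array, which is no sign that each was detected. The lowest values, such as 1.74 for Mog and 2.28 for Cdh5, lay far under the filter on low signal. All 8 neuronal markers on both designs passed the filter on low signal, and so did 7 of 8 of astrocytes and radial glia, 6 of 10 of microglia and macrophages, 3 of 6 of the oligodendrocyte lineage, 2 of 5 of endothelium and 6 of 7 of fibroblasts and mural cells. The number of arrays limits the precision.

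Of the 7 member probe sets on both designs, 5 fell at 24 h and 4 at 48 h. Those that fell at both times were 1 probe set each of Hmgcs1, Mvk, Idi1 and Fdps. Of all probe sets tested, 6.66% fell at 24 h and 3.57% at 48 h. The calls at 48 h were 473 higher and 249 lower, and with median scaling 287 and 637. Under either scaling 4 of the 7 members fell, Mvk 95632_f_at among them. The median change of the 7 was -1.55 at 24 h and -0.90 at 48 h, beside -0.03 and 0.04 over all probe sets tested. Mvk 95632_f_at reached the filter only through its controls; among the other 6 the counts were 4 and 3 and the medians -1.27 and -0.60. On U74Av2 alone, where 8696 probe sets were tested, 2 of the 3 tested members fell at each time, 1 of Mvd and 1 of Fdps; 2.91% of all fell at 24 h and 1.87% at 48 h. Every control array lay above every lactacystin array of the same time for 5 of the 7 at 24 h, where 18.9% of all did so, and for 4 of the 7 at 48 h, where 9.87% did. For 4 of the 7 every control lay above every lactacystin array of either time (3.01% of all). Each of these counts includes Mvk 95632_f_at, and its ranks below carry the same limit of the filter. Apart from it, the probe sets so separated were those of Hmgcs1, Idi1 and Fdps, and at 24 h also Mvk 95633_r_at. Ordered from the largest fall among the 6984, Idi1 was at rank 2, Mvk 95632_f_at at 4, Fdps at 5, Hmgcs1 at 18, Mvk 95633_r_at at 65, and Ggps1 at 2149 and 4807 at 24 h. At 48 h Idi1 was at rank 3, Fdps at 4, Mvk 95632_f_at at 5, Hmgcs1 at 43, Mvk 95633_r_at at 866 and Ggps1 at 2213 and 1950. In these bulk samples, fewer cells of a type and less RNA per cell cannot be told apart.

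**Figure D2:**
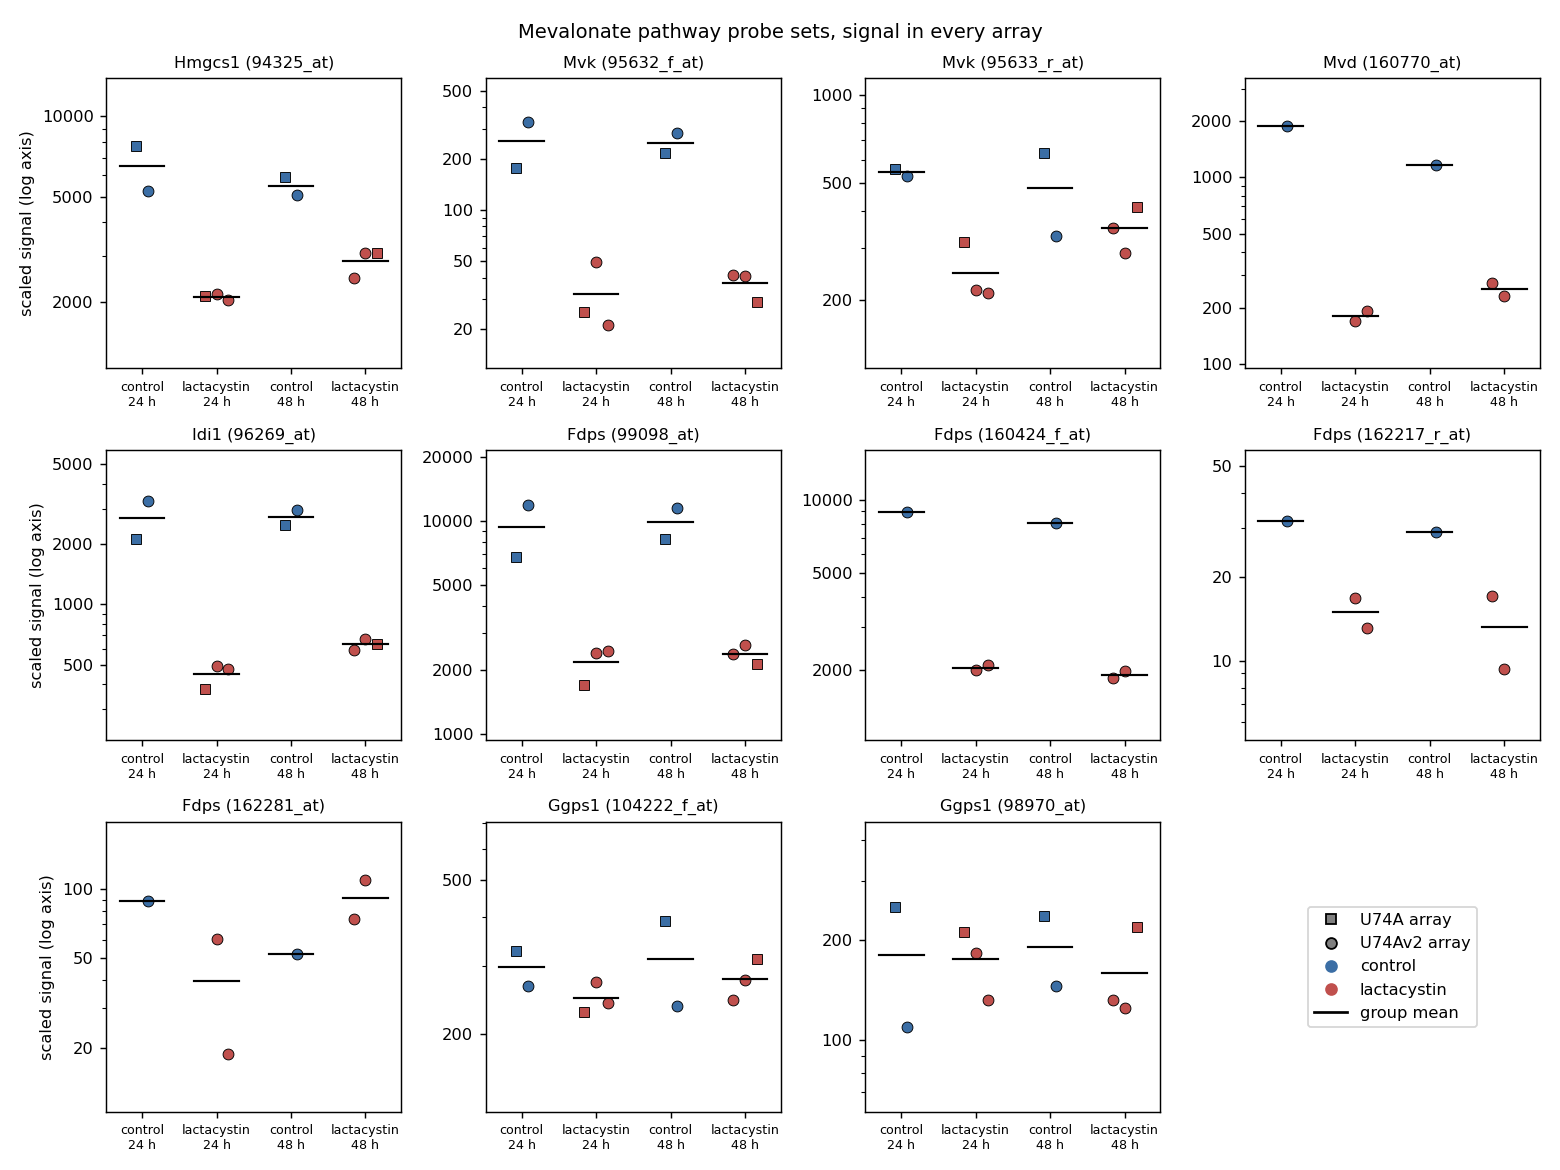
Scaled signal (log axis) of each of the 11 member probe sets on every array, by group; squares are U74A and circles U74Av2 arrays, blue is control, red is lactacystin and bars are group means. Controls and lactacystin arrays do not overlap for Hmgcs1, Mvk 95632_f_at, Mvd, Idi1, Fdps 99098_at and Fdps 160424_f_at, and overlap for Ggps1.

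Hmgcs1 encodes the cytosolic HMG-CoA synthase, which commits acetoacetyl-CoA to the pathway, and was measured by 94325_at. At 24 h its signal was 7724 and 5261 in the controls and 2119, 2148 and 2036 under lactacystin. At 48 h it was 5938 and 5051 in the controls and 2461, 3067 and 3070 under lactacystin. The lowest control was above the highest lactacystin array at both times, and the mean under lactacystin was 32.4% of control at 24 h and 52.2% at 48 h. The fall was -1.55 ± 0.13 log2 at 24 h (SE, adjusted p = 4.52e-05) and -0.90 ± 0.13 at 48 h (adjusted p = 0.00189). Within U74A the values were -1.85 and -0.94 and within U74Av2 -1.32 and -0.87, so both designs had the smaller difference at 48 h.

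Mvk encodes mevalonate kinase, which adds the first phosphate to mevalonate. It had 2 probe sets made from the same sequence record, named 95632_f_at and 95633_r_at. In the array's naming, f marks probes that may also match related sequences and r a probe set picked under relaxed rules. The signal of 95632_f_at was 177 and 328 in the controls and 25.1, 49.5 and 21.2 under lactacystin at 24 h. At 48 h it was 215 and 281 in the controls and 41.5, 41.2 and 28.8 under lactacystin. No lactacystin array reached a control array, with means of 12.6% and 15.0% of control, and all 6 lactacystin values lay under the 54.8 of the filter on low signal, so the size of the fall rests on values near the floor. The fitted change was -2.19 ± 0.23 at 24 h (adjusted p = 0.000113) and -2.08 ± 0.23 at 48 h (adjusted p = 0.000359). With 16 added in place of 32 it was -2.54 and -2.38, and with 64 it was -1.74 and -1.67.

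The other Mvk probe set moved less. The signal of 95633_r_at was 561 and 527 in the controls and 314, 216 and 210 under lactacystin at 24 h, a fall of -0.99 ± 0.17 (adjusted p = 0.00281). At 48 h it was 632 and 331 in the controls and 351, 289 and 414 under lactacystin, a difference of -0.30 ± 0.17 (adjusted p = 0.319, 95% interval -0.67 to 0.08). The groups overlapped at 48 h, where the control on U74A was higher than the control on U74Av2 by 0.87 log2; the difference was -0.58 within U74A and -0.05 within U74Av2. The call at 24 h was lost without control 24 h replicate 2 (-0.74, adjusted p = 0.0872) and without the design covariate (-1.07, adjusted p = 0.0665). The changes of the 2 Mvk probe sets, averaged over times and designs, differed by -1.46 log2, or -1.77 with 16 added and -1.08 with 64 (exact permutation test within time and design, p = 0.0278, the smallest that the 36 assignments allow; adjusted p = 0.0389 over 21 pairs of member probe sets).

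Mvd encodes mevalonate diphosphate decarboxylase, which makes isopentenyl diphosphate, and its probe set 160770_at was on U74Av2 alone. At 24 h its signal was 1889 in the control and 171 and 191 under lactacystin, or 9.58% of control. At 48 h it was 1171 in the control and 271 and 231 under lactacystin, or 21.4% of control. Both controls were above all 4 lactacystin arrays, which held for 12.2% of the probe sets tested on these 6 arrays. The fall was -3.18 ± 0.17 at 24 h (adjusted p = 0.00145) and -2.09 ± 0.17 at 48 h (adjusted p = 0.00471). This fit left 2 residual degrees of freedom, and the lone control of each time is assumed to vary like the lactacystin arrays.

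Idi1 encodes the isomerase that turns isopentenyl diphosphate into dimethylallyl diphosphate, and was measured by 96269_at. At 24 h the signal was 2124 and 3270 in the controls and 379, 494 and 477 under lactacystin. At 48 h it was 2502 and 2971 in the controls and 590, 671 and 633 under lactacystin. The groups were far apart at both times, with means of 16.7% and 23.1% of control. The fall was -2.52 ± 0.14 at 24 h (adjusted p = 4.78e-06) and -2.10 ± 0.14 at 48 h (adjusted p = 1.53e-05). It was -2.39 and -1.93 within U74A and -2.67 and -2.18 within U74Av2.

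Fdps encodes farnesyl diphosphate synthase, whose product is the branch point to sterols and to the prenyl groups, and had 4 probe sets. Only 99098_at was on both designs. Its signal was 6791 and 11888 in the controls and 1696, 2402 and 2448 under lactacystin at 24 h. At 48 h it was 8196 and 11513 in the controls and 2375, 2636 and 2146 under lactacystin. The U74A array was the lowest of its group in each of the 4 groups, and no lactacystin array reached a control. The means were 23.4% of control at 24 h and 24.2% at 48 h, with falls of -2.13 ± 0.12 (adjusted p = 4.78e-06) and -2.10 ± 0.12 (adjusted p = 1.11e-05). Within U74A the values were -1.98 and -1.92, and within U74Av2 -2.28 and -2.19.

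On U74Av2 alone, Fdps 160424_f_at was 8924 in the control and 1997 and 2095 under lactacystin at 24 h, and 8037 against 1854 and 1977 at 48 h. Its falls of -2.11 ± 0.10 (adjusted p = 0.00145) and -2.05 ± 0.10 (adjusted p = 0.00142) stood beside -2.28 and -2.19 for 99098_at on the same 6 arrays. The remaining Fdps probe sets were dim. For 162281_at the signal was 89.1 in the control and 60.4 and 18.9 under lactacystin at 24 h, and 51.9 against 74.1 and 110 at 48 h. Neither difference passed the test (-0.82 ± 0.42, adjusted p = 0.282, and 0.55 ± 0.42, adjusted p = 0.486), and the 95% intervals ran from -1.84 to 0.19 and from -0.47 to 1.56. The probe set 162217_r_at was under the filter on low signal and was not tested; it read 31.7 in the control against 16.8 and 13.2 at 24 h, and 29.0 against 17.1 and 9.34 at 48 h.

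Ggps1 encodes geranylgeranyl diphosphate synthase, which adds a further isoprene unit to farnesyl diphosphate for protein prenylation, and neither of its probe sets passed the test. The signal of 104222_f_at was 329 and 267 in the controls and 228, 273 and 241 under lactacystin at 24 h, and 391 and 236 against 245, 276 and 313 at 48 h. The groups overlapped at both times. The differences were -0.20 ± 0.18 (adjusted p = 0.495, 95% interval -0.59 to 0.19) and -0.09 ± 0.18 (adjusted p = 0.82, interval -0.48 to 0.30). For 98970_at the signal was 251 and 110 in the controls and 212, 183 and 132 under lactacystin at 24 h, and 235 and 146 against 132, 125 and 219 at 48 h. The U74A array was the highest of its group each time, and the differences were 0.14 ± 0.18 (adjusted p = 0.67, interval -0.27 to 0.54) and -0.12 ± 0.18 (adjusted p = 0.759, interval -0.52 to 0.28). None of these 4 intervals reached a fall of 0.6 log2.

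**Figure D3:**
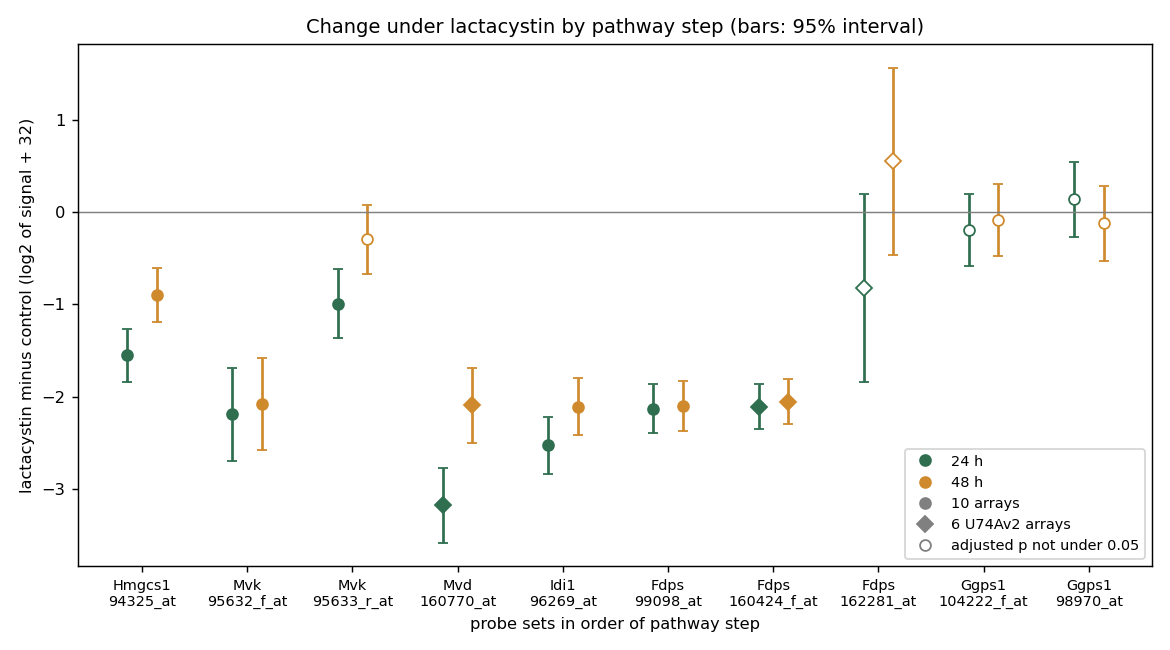
Change under lactacystin (log2 of signal + 32) of the 10 tested member probe sets in order of pathway step, at 24 h (green) and 48 h (orange), with 95% intervals; diamonds are fits on the 6 U74Av2 arrays and open symbols did not pass an adjusted p of 0.05. Mvd at 24 h lies lowest at -3.18, and the Ggps1 intervals hold 0.

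The members' changes were compared with each other over both times, by the exact permutation test named above on the 21 pairs of probe sets present on both designs. Hmgcs1, Idi1 and Fdps 99098_at each differed from both Ggps1 probe sets, with exact p = 0.0278 and adjusted p = 0.0389 for each pair. That exact p is the smallest that the 36 assignments allow, so every pair at it has the same adjusted p. Its value depends on how many of the 21 pairs are at that limit, and it cannot rank the gaps. The pairs share the same arrays, and the tests were added after values were seen. The gap to Ggps1 104222_f_at was -1.07 log2 for Hmgcs1, -2.12 for Idi1 and -1.92 for Fdps. Mvk 95632_f_at, whose change rests on values near the floor, stood -1.94 from it (-2.26 with 16 added, -1.52 with 64). Mvk 95633_r_at differed from it by -0.47 (exact p = 0.0556, adjusted p = 0.0686). The Hmgcs1 probe set had a smaller fall than that of Idi1 by 1.05 and than Fdps 99098_at by 0.85 log2 (exact p = 0.0278, adjusted p = 0.0389 for each). The 2 Mvk probe sets, made from the same sequence record, stood -1.46 apart in this test. The gaps are thus between probe sets, and whether the genes differ was not tested. For Idi1 against Fdps the gap was -0.20 (exact p = 0.0833, adjusted p = 0.0972), which did not pass.

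Over both times together 5 of the 7 fell, where 7.52% of all probe sets tested fell (665 higher and 525 lower, and 457 and 708 with median scaling). Without Mvk 95632_f_at, which reached the filter only through its controls, 4 of the other 6 fell, with a median of -0.93. The falls were -1.22 ± 0.13 for Hmgcs1 (adjusted p = 0.000109), -2.13 ± 0.16 for Mvk 95632_f_at (adjusted p = 7.15e-06), -0.64 ± 0.16 for Mvk 95633_r_at (adjusted p = 0.0151), -2.31 ± 0.12 for Idi1 (adjusted p = 3.22e-07) and -2.11 ± 0.09 for Fdps 99098_at (adjusted p = 9.19e-08). On U74Av2 alone, where 3.04% of all fell, the falls were -2.63 ± 0.23 for Mvd (adjusted p = 0.00106) and -2.08 ± 0.09 for Fdps 160424_f_at (adjusted p = 5.08e-05). The call of Mvk 95633_r_at was lost without control 24 h replicate 2 (-0.44, adjusted p = 0.0831) and without lactacystin 24 h replicate 1 (-0.60, adjusted p = 0.0534).

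Hmgcs1, Mvk 95633_r_at, Mvd and Idi1 lay closer to control at 48 h than at 24 h, but no member's difference between the times passed the test. The effect at 48 h minus that at 24 h was 0.65 ± 0.18 for Hmgcs1 (adjusted p = 0.113, 95% interval 0.25 to 1.06), 0.70 ± 0.24 for Mvk 95633_r_at (adjusted p = 0.18), 0.11 ± 0.32 for Mvk 95632_f_at (adjusted p = 0.893), 0.42 ± 0.20 for Idi1 (adjusted p = 0.326) and 0.03 ± 0.17 for Fdps 99098_at (adjusted p = 0.956). By limma 0 of the 7 passed, where 1.23% of all probe sets passed. An unadjusted p under 0.05 was found for 2 of the 7 and for 1132 of the 6984. On the 6 U74Av2 arrays it was 1.08 ± 0.24 for Mvd (adjusted p = 0.129), where 0.149% of all passed. The controls of Mvd differed by -0.68 ± 0.19 from 24 h to 48 h (unadjusted p = 0.0117, adjusted p = 0.45), and its lactacystin arrays by 0.41 ± 0.14 (adjusted p = 0.121). On the 10 arrays, between the control times, 0 of the 7 passed by limma, 0 had an unadjusted p under 0.05, and 0% of all passed (391 of the 6984 at an unadjusted p under 0.05).

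Under lactacystin the level of 2 of the 7 rose from 24 h to 48 h, where 6.19% of all rose (432 higher and 376 lower, and 225 and 529 with median scaling). Idi1 rose by 0.47 ± 0.13 (adjusted p = 0.0354) and Hmgcs1 by 0.43 ± 0.12 (adjusted p = 0.0361). For each the lowest array at 48 h was above the highest at 24 h, but the share of all probe sets so separated was not counted. The calls of Idi1 and Hmgcs1 were sensitive to the processing. Of the 7, 0 passed with median scaling or without lactacystin 24 h replicate 1, 2 or 3, control 48 h replicate 1, or lactacystin 48 h replicate 2 or 3. Without control 48 h replicate 2, 1 passed. Even at 48 h Idi1 stood at 23.1% and Hmgcs1 at 52.2% of control.

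Genes of the steps from squalene to cholesterol, downstream of Fdps, were also called lower. Of 12 genes listed, 9 were tested on the 10 arrays: 8 fell at 24 h and 7 at 48 h, with medians of -1.44 and -1.24, where 6.66% and 3.57% of all probe sets fell. Fdft1, the squalene synthase gene that takes farnesyl diphosphate into sterols, had signals of 2559 and 3775 in the controls and 803, 1018 and 1088 under lactacystin at 24 h, and 2782 and 3604 against 1058, 1188 and 1056 at 48 h. The changes were -1.71 ± 0.12 (adjusted p = 2.76e-05) and -1.55 ± 0.12 (adjusted p = 5.33e-05), with no overlap of groups. Sqle, the squalene epoxidase gene, changed by -1.44 ± 0.13 (adjusted p = 4.72e-05) and -1.24 ± 0.13 (adjusted p = 0.000281), and the demethylase gene Cyp51 by -1.60 ± 0.17 and -1.46 ± 0.17. Nsdhl, a sterol dehydrogenase gene, changed by -2.10 ± 0.22 and -1.41 ± 0.22, and Dhcr7, which makes cholesterol from 7-dehydrocholesterol, by -1.77 ± 0.23 and -1.60 ± 0.23. The sterol reductase gene Tm7sf2 changed by -0.78 ± 0.13 and -0.93 ± 0.13, and its other probe set, 92437_at, by -1.86 and -1.12. The adjusted p of these genes was at most 0.00243, apart from 0.0157 for 92437_at at 48 h, and without the design covariate the 48 h call of Nsdhl was lost (adjusted p = 0.117).

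Weaker values stood in the same branch. Sc5d, a desaturase gene, changed by -0.94 ± 0.27 at 24 h (adjusted p = 0.0385) and -1.04 ± 0.27 at 48 h (adjusted p = 0.032), but its calls were lost under 11 and 9 of 23 alternatives, among them leaving out either control of the time. Its other probe set, 102769_f_at, was at -0.85 (adjusted p = 0.0412) and -0.59 (adjusted p = 0.163). Hsd17b7, a sterol ketoreductase gene, changed by -1.16 ± 0.20 at 24 h (adjusted p = 0.00345) and differed by -0.57 ± 0.20 at 48 h (adjusted p = 0.106). The 24 h call of Hsd17b7 was lost without control 24 h replicate 2 (adjusted p = 0.0623), without the design covariate (adjusted p = 0.117) and on U74Av2 alone (adjusted p = 0.0688), and at 48 h it was called lower with median scaling (-0.71, adjusted p = 0.0411) and quantile normalization (-0.76, adjusted p = 0.0417). Ebp, a sterol isomerase gene, did not pass at either time (-0.44 ± 0.19, adjusted p = 0.148, and -0.13 ± 0.19, adjusted p = 0.742). On U74Av2 alone the methyl oxidase gene Msmo1 changed by -1.63 ± 0.15 (adjusted p = 0.00378) and -1.81 ± 0.15 (adjusted p = 0.00509). The cyclase gene Lss changed by -1.16 ± 0.26 (adjusted p = 0.0498) and -1.31 ± 0.26 (adjusted p = 0.0445), calls that were lost under 8 and 4 of 14 alternatives, among them leaving out lactacystin 24 h replicate 2 or 3.

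Of 16 listed genes that use the pathway's products, 6 were tested on the 10 arrays, with medians of 0.22 at 24 h and -0.03 at 48 h. Dpm1, a subunit of dolichol-phosphate mannose synthase, rose at 24 h by 0.58 ± 0.16 (adjusted p = 0.0316), a call lost under 8 of 23 alternatives, among them leaving out either control or lactacystin replicate 1 or 2 of that time. The values of the farnesyltransferase subunits were 0.16 ± 0.10 at 24 h for Fnta (adjusted p = 0.349) and -0.76 ± 0.27 for Fntb (adjusted p = 0.088). For Rabggtb, of the Rab prenyltransferase, the value at 24 h was 0.51 ± 0.23 (adjusted p = 0.17), and it was called higher without lactacystin 24 h replicate 1 (0.87, adjusted p = 0.0116). On U74Av2 alone Icmt, which methylates prenylated proteins, rose at 48 h by 1.48 ± 0.30 (adjusted p = 0.0474). Its control there was 27.1, against 148 at 24 h, and the call was lost under 7 of 13 alternatives, among them leaving out lactacystin 24 h replicate 2 or 3 or lactacystin 48 h replicate 2.

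Among regulators and sterol carriers, 4 of 16 listed genes were tested on the 10 arrays. By limma 0 passed at 24 h, where 8.2% of all probe sets tested rose and 6.66% fell. At an unadjusted p under 0.05 there were 2051 of the 6984. At 48 h 1 of the 4 rose, where 6.77% of all rose. Srebf1, which encodes the SREBP-1 forms, had signals of 1322 and 1076 in the controls and 1336, 807 and 819 under lactacystin at 24 h. Its differences were -0.20 ± 0.13 (adjusted p = 0.351) and 0.11 ± 0.13 at 48 h (adjusted p = 0.694). Srebf2, the gene of SREBP-2, was not analysed here. Mbtps1, a protease that cuts SREBPs, differed by 0.24 ± 0.12 (adjusted p = 0.22) and 0.31 ± 0.12 (adjusted p = 0.137). Abca1, which exports cholesterol and is induced by sterols through the LXR receptors, had signals of 1303 and 897 in the controls and 1560, 1979 and 3383 under lactacystin at 48 h. It rose by 1.18 ± 0.21 (adjusted p = 0.00484), with 1.02 for its other probe set 97198_at (adjusted p = 0.00793), and the call was lost without control 48 h replicate 1 (adjusted p = 0.0698) and without the design covariate (adjusted p = 0.52). On U74Av2 alone Npc2, a lysosomal cholesterol carrier gene, fell at 24 h by 0.49 ± 0.10 (adjusted p = 0.042), a call lost under 4 of 14 alternatives, among them leaving out lactacystin 24 h replicate 2 or 3.

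**Figure D4:**
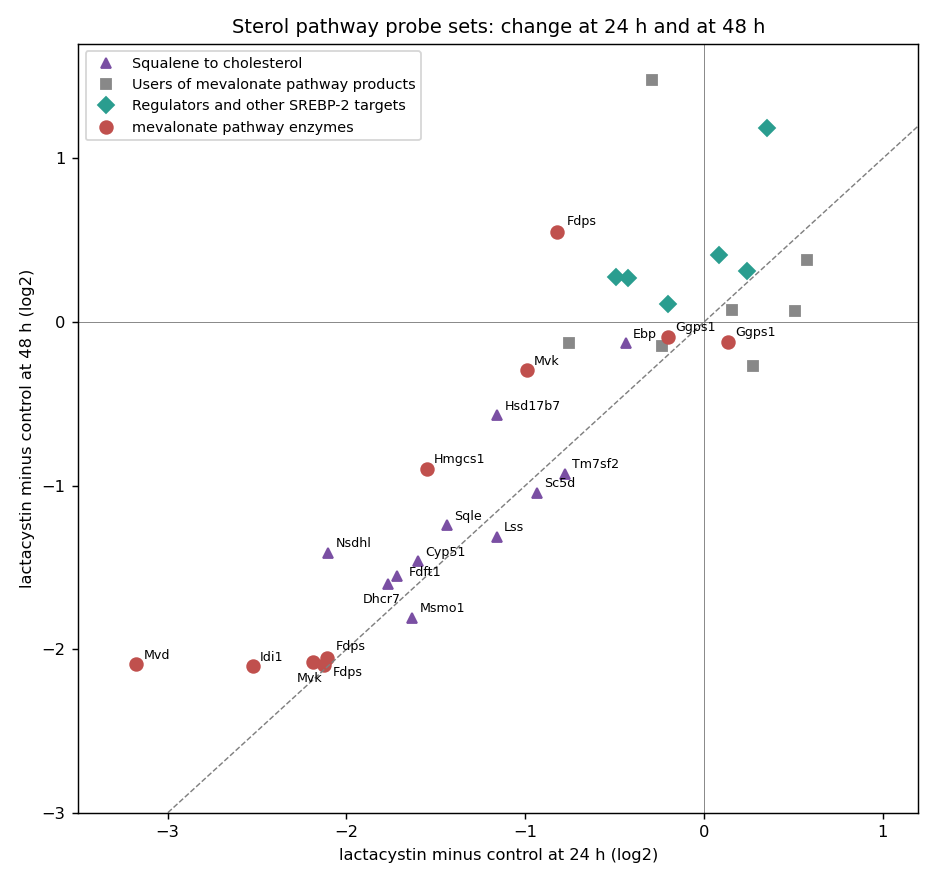
Change under lactacystin at 24 h (horizontal) against 48 h (vertical), both in log2, for the tested mevalonate pathway probe sets (red circles) and for genes of 3 lists; the dashed line marks equal change. The genes from squalene to cholesterol lie below 0 at both times.

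Markers of cell types moved beside these changes. Of 8 neuronal markers tested on the 10 arrays 3 fell at 24 h and 3 at 48 h, with medians of -0.38 and -0.40 log2, where 6.66% and 3.57% of all probe sets fell. Stmn2, a tubulin-binding gene of growing neurites, changed by -0.74 ± 0.11 and -0.57 ± 0.11, and the growth cone gene Gap43 by -0.38 ± 0.09 and -0.56 ± 0.09. The vesicle gene Syt1 fell at 24 h (-1.48 ± 0.43, adjusted p = 0.0379; at 48 h -0.26, adjusted p = 0.769) and the synaptic gene Snap25 at 48 h (-0.55 ± 0.15, adjusted p = 0.0381; at 24 h -0.01, adjusted p = 0.983). Neurofilament gene Nefm was at 0.41 and 0.43 and did not pass, nor did the neuronal tubulin gene Tubb3 on U74Av2 alone (-0.06 and -0.25). The summed signal of the 8, to which Stmn2 and Gap43 gave most, was 20414 to 27591 in controls and 13964 to 19305 under lactacystin at 24 h, and 25133 to 29824 against 15458 to 24260 at 48 h, so the groups did not overlap. Of 6 microglial markers tested 1 rose at 24 h and 3 at 48 h, where 8.2% and 6.77% of all rose, and the sum over all 10 on the arrays was at 48 h 517 to 1065 in controls and 995 to 1594 under lactacystin. Of 7 astrocyte and radial glial markers 2 fell and 1 rose at 24 h, and 2 rose at 48 h. Aqp4 fell at 24 h (-1.89 ± 0.18, adjusted p = 7.28e-05) and was at 0.49 at 48 h (adjusted p = 0.111). Gfap fell at 24 h (-0.64 ± 0.15, adjusted p = 0.0153) and rose at 48 h (1.40 ± 0.15, adjusted p = 0.000328). Gja1 rose at both times (1.04 and 0.90), while Slc1a2, Fabp7, Vim and Glul passed at neither. On U74Av2 alone, with 1 control at each time, Aldoc differed by -1.73 and 0.51. The sum over 8 on both designs, S100b under the filter included, came mostly from Fabp7. At 24 h that sum was 11948 to 17821 in controls and 11370 to 16224 under lactacystin. At 48 h it was 12287 to 18327 in controls and 15294 to 18551 under lactacystin, so the groups overlapped at both times. Of 6 fibroblast and mural markers 1 rose at 24 h (Tagln) and 2 at 48 h (Tagln and Acta2), while Col1a1, Col3a1, Dcn and Lum passed at neither time. The sum over 7, 1 under the filter included, came mostly from Acta2 and Tagln. At 24 h it was 1278 to 1295 in controls and 1153 to 2492 under lactacystin, so the groups overlapped. At 48 h it was 1195 to 1269 in controls and 2070 to 3829 under lactacystin. For oligodendrocyte and endothelial markers 0 of 3 and 0 of 2 passed by limma at each time. The part of these shifts in the members' falls was not tested.

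The genes whose values followed the members most closely were sought among 5541 named genes, as the Pearson correlation over the 10 arrays with the mean standardised profile of the 5 member genes tested on both designs, after the mean of each design was taken out. The values are descriptions, and the points share the same arrays and the same treatment. Nudt3, a diphosphoinositol phosphohydrolase gene, had r = 0.979, although its change was -0.42 ± 0.10 at 24 h and -0.25 ± 0.10 at 48 h. The neuropeptide gene Npy (0.974) changed by -1.52 ± 0.18 and -1.37 ± 0.18, and Crmp1 (0.973), a gene of growth cone signalling, by -0.60 ± 0.09 and -0.43 ± 0.09. Of the sterol genes Nsdhl (0.971) and Sqle (0.958) were among the 10, and so was the fatty acid desaturase gene Scd2 (0.966; -0.67 ± 0.10 and -0.53 ± 0.10). The others were Tmem229b (0.964), Mllt1 (0.964), the neurofilament gene Ina (0.958) and Socs2 (0.950), an inhibitor of cytokine signalling. Among the members themselves r with the mean profile was 0.965 for Hmgcs1, 0.962 for Idi1, 0.937 for Fdps, 0.910 for Mvk and 0.670 for Ggps1. Each of these 5 genes is part of that mean, which raises its r, so these values cannot be set against those of other genes.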

How the data were processed

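The 10 RNA samples were measured on 4 U74A and 6 U74Av2 arrays (Affymetrix), with 7 µg of total RNA per labelling. Deposited by the authors is a linear intensity for each probe set and array. Per the submitters' processing notes the software was MAS5; its version is not given in the sources used here. Control probe sets (66) were not used.

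Over the 9977 probe sets of both designs each array was set to a 2% trimmed mean of 500, and log2(signal + 32) was taken. The 2993 lowest were left out. In limma 3.58.1 (R 4.3.3) the 4 groups were fitted together with design as a covariate (lmFit, eBayes with trend; 5 residual degrees of freedom, 6 over both times with time as covariate). Probe sets of U74Av2 alone were fitted on its 6 arrays (2 residual degrees of freedom, 3 over both times; filter at 45.3). Tests are two-sided, adjusted by Benjamini-Hochberg over all probe sets tested, with a threshold of 0.05. The fits were tested on simulated data.

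All member probe sets are named, with genes of the pathway lists and the 10 genes most like the members; the probe set with the highest mean stands for a listed gene. Members, lists and tests were chosen with earlier results of these data known, and the pairwise permutation tests were added after values were seen. Symbols were updated through RefSeq (GRCm38.p6). Alternatives were other pseudocounts, scalings, filters and variance models, no design covariate, U74Av2 alone, a replicate block, 1 time alone and each array left out. Every adjusted p of a gene is from limma unless a permutation test is named.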

Additional observations from a re-analysis of the deposited data

How the results depend on the processing

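The calls of Hmgcs1, Mvk 95632_f_at, Idi1 and Fdps 99098_at at 24 h, at 48 h and over both times, and those of Mvd and Fdps 160424_f_at, held under every alternative in which the probe set was tested, and none reversed. On U74Av2 alone no call at 24 h or 48 h could be tried without the lone control of that time, because no control then remained. The alternatives thus do not show how far the calls of Mvd and Fdps 160424_f_at at each time rest on that array. Mvk 95633_r_at lost its call over both times without the design covariate (-0.72, adjusted p = 0.0681), with the replicate block (-0.64, adjusted p = 0.0619) and on U74Av2 alone (-0.62, adjusted p = 0.188). The cause was not tested. Differences that did not pass, such as those of Ggps1, changed sign under some settings. Of the 63 alternative values of pairs of members, 2 lost and 1 gained a call: with a pseudocount of 64 Hmgcs1 against Mvk 95632_f_at (0.45, adjusted p = 0.184) and Mvk 95632_f_at against Idi1 (0.55, adjusted p = 0.0389), and with 16 Hmgcs1 against Mvk 95633_r_at (-0.58, adjusted p = 0.0686).

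The count of all probe sets called was more sensitive than the members. At 24 h (1038) it was 248 without the design covariate and 657 on U74Av2 alone, and 310 to 1106 without 1 array (592 and 310 without control 24 h replicate 1 or 2). At 48 h (722) it was 110, 434 and, with 1 time alone, 439, and 210 to 823 without 1 array (236 and 210 without control 48 h replicate 1 or 2). For the difference (86) it was 155 with median scaling (19 higher, 136 lower, against 29 and 57), 48 with no filter, 2 without the design covariate, 36 without the trend and 13 on U74Av2 alone, and 5 to 186 without 1 array. Over both times (1190) it was 493 without the design covariate, 747 with the replicate block and 591 on U74Av2 alone, and 760 to 1150 without 1 array. From 24 h to 48 h it was 0 to 2 in controls (0) and 329 to 830 under lactacystin (808) without 1 array, and 138 without the design covariate. The 2 members called higher at 48 h under lactacystin became 0 with median scaling, no filter, no design covariate, no trend or U74Av2 alone, 1 with the replicate block, and 0 to 2 without 1 array. The members called numbered 4 to 5 at 24 h, 4 to 4 at 48 h and 4 to 5 over both times without 1 array. On U74Av2 the count at 24 h (657) was 361 with no filter, 145 without the trend and 132 to 1725 without 1 array. At 48 h (434) it was 871 with median scaling (214 higher, 657 lower, against 271 and 163), 113, 52 and 174 to 1237, and over both times (591) 359, 280 and 212 to 660. Squalene to cholesterol genes called numbered 6 to 8 at 24 h and 6 to 7 at 48 h without 1 array.

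Median scaling shifted the median of all probe sets at 48 h by -0.15 log2. Replicate numbers were not taken as pairs, because no label says that a number marks a shared culture or day. Deviations of same-numbered arrays correlated from -0.41 to 0.27. These values cannot decide whether arrays were paired. The deviations of the 2 controls of a time are exact opposites, and replicate number nearly coincides with array design. The replicate block was not run on U74Av2 alone. Depth does not apply to arrays; dim probe sets such as Mvk 95632_f_at under lactacystin limit how large a fall can be read.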
